A study of Mus musculus with 10 samples.

Results

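*Camk2a* and the genes around it in the calcium/calmodulin-dependent protein kinase (CaMK) family were examined in the cortical hem (CH) of wild-type and *Lmx1a-/-* mouse embryos. The group holds 10 of the 52227 genes counted, matched by symbol. They are the CaMKII genes *Camk2a*, *Camk2b*, *Camk2d* and *Camk2g*, the CaMKII inhibitor genes *Camk2n1* and *Camk2n2*, the kinases *Camk4* and *Camk1d*, and the upstream kinases *Camkk1* and *Camkk2*. *Camk2a* was chosen on its difference between the genotypes in these same libraries, and the others were added by family. The genotype differences of all 10 are therefore given as descriptions, without a test. In *Lmx1a-/-* CH, *Camk2a* stood at 57.0% and *Camk1d* at 50.4% of their wild-type means, and no *Lmx1a-/-* embryo reached the wild-type range of either gene. *Camk2g* and *Camkk2* had nearly the same mean in both genotypes.

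The CH is the signaling center at the medial edge of the developing cortex. It secretes Wnt and Bmp proteins and produces Cajal-Retzius (CR) cells. RNAseq was performed on CH cut out of the telencephalon by laser capture microdissection at embryonic day 13.5, in 5 wild-type embryos and in 5 with both copies of *Lmx1a* carrying the dreherJ (drJ) allele. Sections from one embryo made one library. The drJ allele carries a point mutation that leaves an inactive Lmx1a protein, and staining of neighboring sections for that protein set the borders of the captured area in both genotypes. The animals had a mixed C57Bl6, FVB and CD1 background and were of both sexes. No other allele or treatment was used.

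CaMKII is a large multisubunit kinase that calcium-bound calmodulin switches on, and it can phosphorylate itself and then stay active after the calcium signal has ended. The alpha and beta subunits predominate in mature neurons, where they sit at synapses and take part in plasticity, whereas the gamma and delta subunits are found in many tissues. CaMKI and CaMKIV act in a cascade below CaMKK1 and CaMKK2, which phosphorylate them, and CaMKK2 also phosphorylates the energy sensor AMPK.

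Promoter windows from RefSeq (GRCm38.p6), running from 250 bases before to 50 bases after an annotated start, were matched for 6 of the 10 genes, with 7 windows in all. These were *Camk1d*, with 2 windows, and *Camk2b*, *Camk2d*, *Camk2n2*, *Camkk1* and *Camkk2*, with 1 each. The windows were searched on both strands for TAAT, the core that homeodomain proteins such as Lmx1a bind, for the longer TAATTA, whose letters contain TAAT on both strands, and for TGACG, part of the site of CREB, a CaM kinase substrate. TAAT was found in 2 of the 7 windows, both of *Camk1d*, against 58.0% of the 32851 windows of all genes. The 250 bases before each *Camk1d* start are shown because *Camk1d* had the lowest ratio of *Lmx1a-/-* to wild-type mean among the genes with a window. They are written 5′ to 3′ along the minus strand of chromosome 2, with TAAT and its reverse complement in capitals.
Camk1d start inside the gene body, chr2:5676047-5676296: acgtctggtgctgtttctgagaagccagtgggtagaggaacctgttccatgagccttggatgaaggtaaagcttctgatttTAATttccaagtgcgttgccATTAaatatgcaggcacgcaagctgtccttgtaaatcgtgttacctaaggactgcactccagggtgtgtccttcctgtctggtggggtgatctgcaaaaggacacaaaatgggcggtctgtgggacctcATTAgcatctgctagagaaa
Camk1d start at the 5′ end of the gene, chr2:5714763-5715012: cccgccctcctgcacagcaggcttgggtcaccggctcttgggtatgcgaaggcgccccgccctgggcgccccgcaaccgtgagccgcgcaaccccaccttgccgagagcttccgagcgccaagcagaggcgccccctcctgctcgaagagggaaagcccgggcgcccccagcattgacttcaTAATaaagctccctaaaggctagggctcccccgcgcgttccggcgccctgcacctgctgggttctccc

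The window of the start inside the gene was AT-richer, with a GC content of 48.7%, and held TAATTA once, beginning 4 bases after the start. TAATTA was present in 5.29% of all windows. These 30 bases, at chr2:5676025-5676054 on the minus strand, hold it in capitals.
*Camk1d* TAATTA: tagagaaagggcTAATTAtgcaggttttca
The other 6 member windows had a GC content between 70.3% and 79.0%, against a median of 52.7% over all windows. TGACG was found in the windows of *Camkk1* and *Camk2n2*, against 20.8% of all windows. The counts are per gene and do not tell which *Camk1d* start was used, and a run of letters is not a binding site.

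The libraries held between 19145952 and 36462780 counts, of which 20.6% to 27.6% were mitochondrial. Levels below are CPM, the share of a library's counts scaled to a common total and normalized by TMM, and a gene entered the comparison when 3 or more libraries had 10 or more counts of it, which 21664 genes did. The genotype comparison used the quasi-likelihood test of edgeR, and a gene was called at a false discovery rate (FDR, Benjamini-Hochberg) below 0.1. *Lmx1a*, whose mutant transcript is still made, had 71.2 ± 18.2 CPM in wild-type CH against 114 ± 21.0 CPM in *Lmx1a-/-* CH (SD, n = 5 each), so its level does not check the labels. The captured tissue held all 8 listed CH markers, *Lmx1a* among them, with a summed level of 2110 to 4001 CPM in wild-type libraries against 2605 to 3696 CPM in *Lmx1a-/-* libraries. The sum hides differences, since 5 of the 8 means were lower and 3 higher in *Lmx1a-/-* CH. Of the 8, 2 were called lower and 1 higher, beside 2.29% and 1.72% of all genes tested. Wild-type embryos 2 to 5 had 4399 to 5169 CPM of *Xist*, and wild-type embryo 1 and all *Lmx1a-/-* embryos had 0.163 to 1.15 CPM together with Y-linked transcripts, so sex and genotype cannot be told apart outside wild-type embryo 1. Summed choroid plexus epithelium markers lay between 438 and 1665 CPM in wild-type libraries and between 347 and 595 CPM in *Lmx1a-/-* libraries. In bulk tissue, fewer cells of a type and less RNA per cell cannot be told apart.

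*Camk2a* (ENSMUSG00000024617, chromosome 18 of GRCm38, 60925618 to 60988152) encodes the alpha subunit of CaMKII. It had 48.1, 35.9, 39.1, 35.7 and 43.4 CPM in wild-type embryos 1 to 5 and 24.7, 24.1, 19.5, 23.1 and 23.8 CPM in *Lmx1a-/-* embryos 1 to 5. The groups did not overlap, with a gap between 24.7 and 35.7 CPM, and the *Lmx1a-/-* embryos were closer to each other than the wild-type embryos were. The means were 40.4 ± 5.28 and 23.0 ± 2.09 CPM (SD, n = 5 each), a log2 fold change of −0.81 (SE 0.11). Wild-type embryo 1, the wild-type library with Y-linked transcripts, had the highest level of all 10. Wild-type embryo 3, whose choroid plexus marker sum of 438 CPM fell within the *Lmx1a-/-* range, had 39.1 CPM of *Camk2a*. Each of these is 1 embryo, from which no part of sex or choroid plexus tissue can be read.

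*Camk2b*, the gene of the beta subunit, was sparse in the CH. Its levels were 3.58, 2.93, 2.35, 4.77 and 2.29 CPM in wild-type embryos against 2.73, 3.91, 3.17, 2.99 and 7.20 CPM in *Lmx1a-/-* embryos, with log2 fold change 0.33 (SE 0.32). The groups overlapped, and *Lmx1a-/-* embryo 5 stood above all other libraries. Without it the log2 fold change was 0.01.

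*Camk2d*, which encodes the delta subunit, gave the most reads of the 10 genes. Its levels were 130, 139, 103, 121 and 163 CPM in wild-type embryos against 99.1, 119, 94.1, 100.2 and 94.0 CPM in *Lmx1a-/-* embryos, with log2 fold change −0.38 (SE 0.11). In 4 of 5 *Lmx1a-/-* embryos the level was below the lowest wild-type embryo, and *Lmx1a-/-* embryo 2 was within the wild-type range. *Camk2g*, the gamma subunit gene, had 33.6, 35.6, 40.5, 38.0 and 34.8 CPM in wild-type embryos against 41.9, 32.6, 35.9, 40.1 and 42.4 CPM in *Lmx1a-/-* embryos. Its groups were interleaved and its log2 fold change of 0.08 (SE 0.10) had the smallest SE of the 10 genes.

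The summed CPM of the 4 CaMKII genes was 185 to 243 in wild-type and 153 to 180 in *Lmx1a-/-* embryos. For levels per length, CPM were divided by the length of all exons of a gene merged, in kb. On this scale *Camk2a* made up 31.2% ± 3.05 of the CaMKII level in wild-type and 21.9% ± 1.02 in *Lmx1a-/-* CH (SD, n = 5 each). The share ranged from 28.5% to 36.0% in wild-type and from 20.4% to 23.0% in *Lmx1a-/-* embryos. *Camk2g* made up 33.1% ± 4.09 and 42.9% ± 3.74. With the length of the longest transcript in place of merged exons, the *Camk2a* share was 19.2% ± 2.28 and 13.5% ± 0.652, still without overlap. These shares describe the same genotype difference on which *Camk2a* was chosen.

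Ratios within a library, which do not depend on scaling, set *Camk2a* against single members of the group. *Camk2a* over *Camk2g*, in CPM, was 1.43, 1.01, 0.967, 0.937 and 1.24 in wild-type embryos against 0.590, 0.741, 0.542, 0.576 and 0.561 in *Lmx1a-/-* embryos. *Camk2a* over *Camk2d* was 0.259 to 0.379 in wild-type embryos and 0.202 to 0.253 in *Lmx1a-/-* embryos. Both ratios were thus lower in all *Lmx1a-/-* embryos than in any wild-type embryo. *Camk2a* over *Camk1d*, in contrast, ranged from 0.814 to 1.36 in wild-type embryos and from 0.847 to 1.51 in *Lmx1a-/-* embryos, and *Camk2a* over its inhibitor gene *Camk2n1* from 1.44 to 2.18 and from 1.07 to 2.13. These last ratios overlapped between the genotypes.

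**Figure D1:**
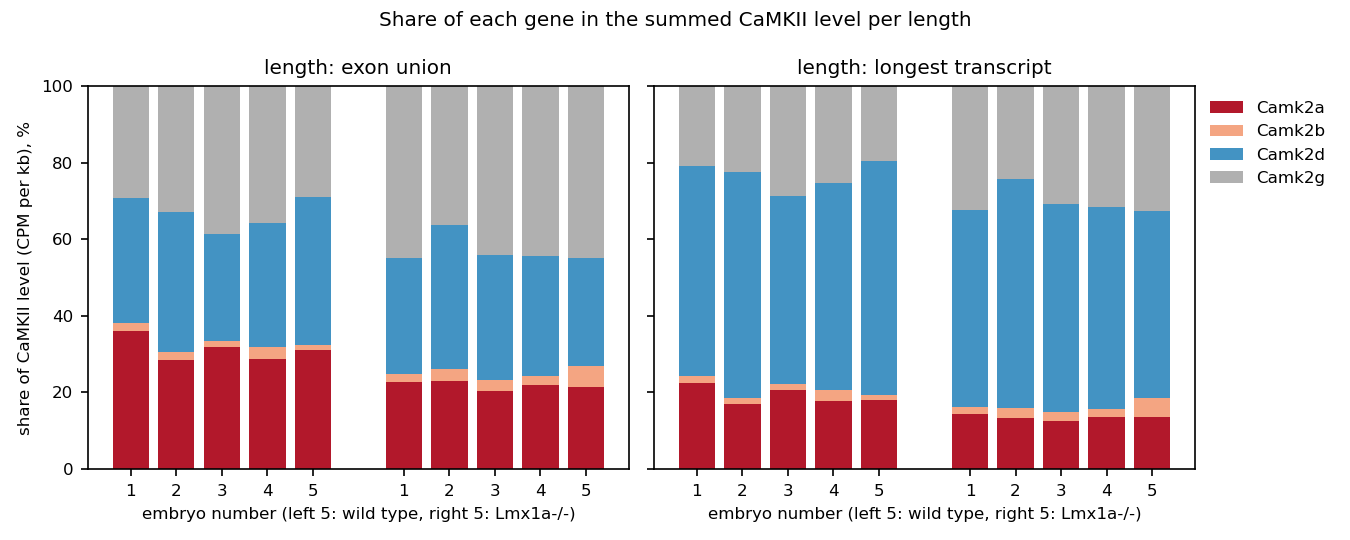
Share of each CaMKII gene in the summed CaMKII level (CPM per kb, %) in each of the 10 embryos, with merged exons (left) and the longest transcript (right) as the length. The Camk2a segment spans 28.5% to 36.0% in wild-type and 20.4% to 23.0% in Lmx1a-/- embryos on the left, and the Camk2d segment depends on the length used.

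The inhibitor genes encode small proteins that bind the active kinase and block it. *Camk2n1* (chromosome 4 of GRCm38, 138454314 to 138460123) had 24.0, 21.8, 17.97, 22.9 and 30.2 CPM in wild-type embryos against 11.6, 17.1, 17.2, 12.5 and 22.3 CPM in *Lmx1a-/-* embryos, with log2 fold change −0.53 (SE 0.18). *Lmx1a-/-* embryo 5 was within the wild-type range and the other 4 were below it. *Camk2n2* was sparse, at 1.92 to 4.41 CPM in wild-type embryos against 2.25 to 5.04 CPM in *Lmx1a-/-* embryos, with log2 fold change 0.31 (SE 0.30) and overlapping groups.

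*Camk1d* (ENSMUSG00000039145, chromosome 2 of GRCm38, 5293457 to 5714515) encodes the delta form of CaMKI, and its start regions are the sequences shown above. It had 35.2, 43.8, 28.9, 39.2 and 53.3 CPM in wild-type embryos against 16.4, 19.3, 23.0, 18.8 and 23.5 CPM in *Lmx1a-/-* embryos. All *Lmx1a-/-* embryos were below all wild-type embryos, with wild-type embryo 3 nearest to them. The means were 40.1 ± 9.17 and 20.2 ± 2.99 CPM (SD, n = 5 each), a log2 fold change of −0.99 (SE 0.16). *Camk4*, the CaMKIV gene, was near the limit of detection, with 10 to 49 reads per library. It had 0.591 to 2.08 CPM in wild-type embryos against 0.277 to 1.13 CPM in *Lmx1a-/-* embryos, and its log2 fold change of −0.66 had an SE of 0.48.

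Neither of the upstream kinase genes had groups that were apart. *Camkk1* was at 2.95 to 3.89 CPM in wild-type embryos and spread from 0.997 to 5.64 CPM in *Lmx1a-/-* embryos, with log2 fold change −0.18 (SE 0.37). Leaving out 1 embryo at a time moved it between −0.52 and 0.04. *Camkk2*, which is also the AMPK kinase, had 9.53 to 12.4 CPM in wild-type embryos against 9.57 to 12.8 CPM in *Lmx1a-/-* embryos, with log2 fold change 0.03 (SE 0.13).

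The genes also differed in how far embryos of one genotype lay apart. In wild-type CH the coefficient of variation (SD over mean) was lowest for *Camk2g* (7.57%), *Camkk2* (9.69%) and *Camkk1* (10.1%), was 13.1% for *Camk2a* and 22.9% for *Camk1d*, and was highest for the sparse *Camk4* (51.6%). In *Lmx1a-/-* CH it was 9.07% for *Camk2a* and 14.8% for *Camk1d*. *Camkk1* had the widest relative spread there (58.1%), from *Lmx1a-/-* embryo 4 with 0.997 CPM to embryo 5 with 5.64 CPM. *Lmx1a-/-* embryo 5 had the highest level of its genotype for *Camk2b*, *Camk2g*, *Camk2n1*, *Camk2n2*, *Camk1d* and *Camkk1*.

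**Figure D2:**
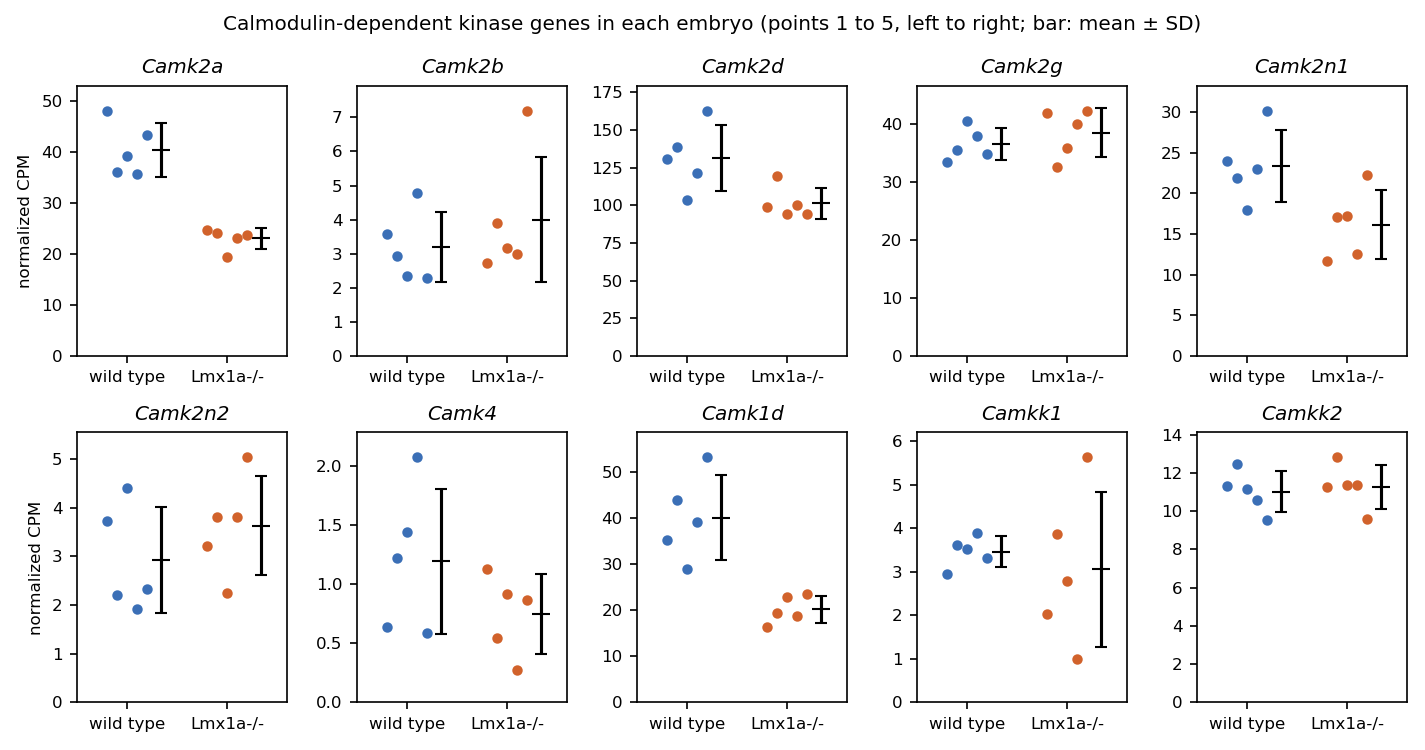
Normalized CPM of the 10 genes in each embryo (points, embryos 1 to 5 from left to right; linear axes from 0), with the mean ± SD of 5 embryos per genotype. Camk2a and Camk1d are the panels in which the genotypes do not overlap.

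Of the 10 genes, 2 (*Camk2a* and *Camk1d*) were past the threshold in the fit over all genes, both lower in *Lmx1a-/-* CH, where 2.29% of the genes tested were called lower and 1.72% higher. The same 2 had all *Lmx1a-/-* embryos below all wild-type ones, which 2.27% of the genes tested did, while 2.17% had all *Lmx1a-/-* embryos above. Because the genotype difference was used to choose *Camk2a*, nothing is read from these counts. The mean was lower in *Lmx1a-/-* CH for 6 of the 10 genes, and their median log2 fold change was −0.28, beside a median of −0.0049 and 50.6% lower means over all genes tested. With 3 other scalings of the libraries 6 of the 10 means were likewise lower.

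**Figure D3:**
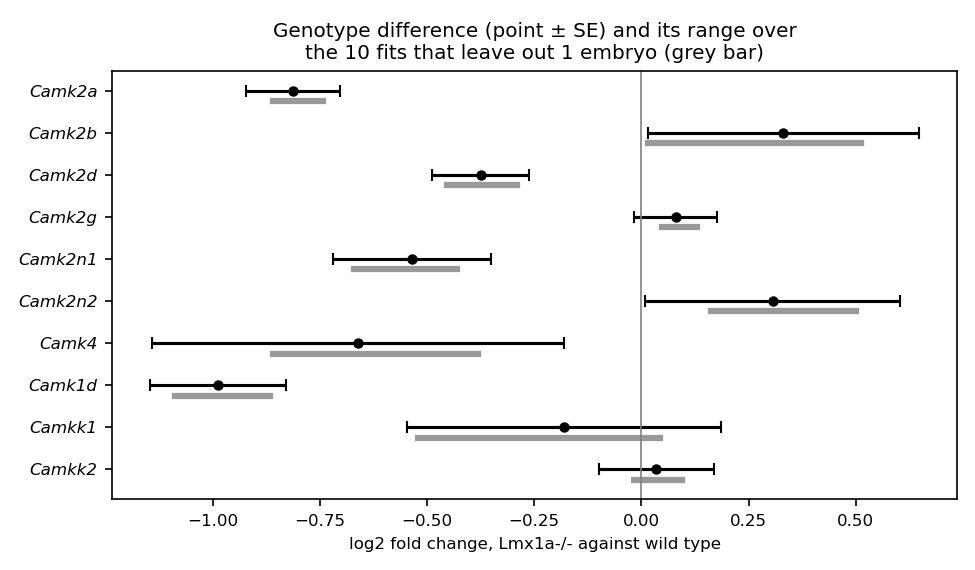
Log2 fold change of Lmx1a-/- against wild-type embryos for the 10 genes (points, bars ± SE), with the range over the 10 fits that each leave out 1 embryo in grey. Camk2a stays between −0.86 and −0.74 and Camk1d between −1.09 and −0.87, whereas the range of Camkk1 crosses 0.

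With the *Xist* level as a covariate, the log2 fold change of *Camk2a* was −1.08 and that of *Camk1d* −0.76, and in the 6 embryos with Y-linked transcripts, of which 1 is wild-type, it was −1.07 and −0.81. With the mean log2 level of the choroid plexus markers as a covariate it was −0.82 for *Camk2a*, −0.56 for *Camk1d*, −0.22 for *Camk2d* and −0.20 for *Camk2n1*. *Camk1d* was not past the threshold in any of these 3 fits, and *Camk2a* was not past it with the choroid plexus covariate. Of the choroid plexus markers, 9 of 10 tested had the lower mean in *Lmx1a-/-* CH, and *Ttr* and *Sulf1* fell. Summed CR cell markers were 352.3 to 564 CPM in wild-type libraries against 241 to 351.8 CPM in *Lmx1a-/-* ones. These CR sums did not overlap between the genotypes, though the gap was narrow. Summed mesenchyme markers were 316 to 906 and 244 to 507 CPM, and summed cortical neuroepithelium markers 513 to 908 and 833 to 1110 CPM. Both of these overlapped. The CR markers were mixed, with 5 of 8 tested means lower and 3 higher in *Lmx1a-/-* CH, and 3 called lower and 1 higher. Of 8 mesenchyme markers 7 had the lower mean and 2 were called lower. All 8 neuroepithelium markers had the higher mean and 1 was called higher. Over all genes tested, 2.29% were called lower and 1.72% higher. Summed red blood cell markers did not overlap between the genotypes, at 643 to 1489 CPM in wild-type libraries against 268 to 581 CPM in *Lmx1a-/-* ones. Of the 9 red blood cell markers tested, 8 had the lower mean in *Lmx1a-/-* CH and their median log2 fold change was −0.91, while 0 passed with edgeR's quasi-likelihood test, 6 had an unadjusted p under 0.05, and 4 passed with DESeq2 and 4 with the likelihood ratio test. The part of CR cells, mesenchyme, neuroepithelium, neurons and red blood cells in the *Camk2a* and *Camk1d* differences was not tested. General neuronal markers had a median log2 fold change of 0.50, with 9 of 12 means higher and 3 lower in *Lmx1a-/-* CH. With edgeR's quasi-likelihood test 0 of the 12 passed and 3 had an unadjusted p under 0.05. With DESeq2 or the likelihood ratio test 0 passed. Over all 21664 genes tested, 3545 had an unadjusted p under 0.05 in edgeR's quasi-likelihood test. Over the same genes, 1766 passed with DESeq2 and 1360 with the likelihood ratio test.

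The order of levels was not used to choose the genes, and neighbors in it were compared within libraries over all 10 embryos with an exact two-sided sign-flip permutation test on log2(CPM per kb + 0.1), adjusted over 9 pairs. Per kb of merged exons, the mean levels over all libraries ran from *Camk2g* (5.86 CPM per kb) through *Camk2d* (5.17), *Camk2n1* (4.45), *Camk2a* (4.25), *Camk1d* (4.06), *Camk2n2* (2.54), *Camkk2* (1.02), *Camkk1* (0.875) and *Camk2b* (0.394) to *Camk4* (0.298). Neighbors differed beyond their spread in 2 of the 9 pairs. *Camk2n2* was above *Camkk2* in 10 of 10 libraries, by 1.17 on the log2 scale (exact permutation test, adjusted p = 0.0176), and *Camkk1* was above *Camk2b* in 9 of 10, by 0.95 (exact permutation test, adjusted p = 0.0176). Over both genotypes pooled, neither the 5 uppermost genes nor the pairs *Camkk2* with *Camkk1* and *Camk2b* with *Camk4* could be ordered against their neighbors. In a pooled test, differences that change direction with genotype can cancel. *Camk1d* and *Camk2n2* had means of 5.40 and 2.26 CPM per kb in wild-type CH, against 2.72 and 2.81 in *Lmx1a-/-* CH. Without *Lmx1a-/-* embryo 5, *Camk2d* also ranked above *Camk2n1* and *Camkk2* above *Camkk1*, which made 4 of 9 pairs.

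The choice of length mattered more for this order than the choice of embryos. The merged exons of *Camk2d* span 22493 bases but its longest transcript 5524 bases, and with transcript length *Camk2d* led *Camk2g* by 1.03 on the log2 scale (difference of *Camk2g* over *Camk2d* −1.03). *Camk2a* then stood above *Camk2n1* (*Camk2n1* over *Camk2a* −0.50), *Camk2n2* no longer differed from *Camkk2* beyond its spread (0.08), and neither did *Camkk1* from *Camk2b* (−0.01). In this version 6 of the same 9 pairs differed. With either length *Camk4* had the lowest mean over all 10 libraries, and *Camk2d* and *Camk2g* held ranks 1 and 2. In wild-type CH alone, with merged exons, *Camk2b* was the lowest (0.349 CPM per kb) and *Camk4* the next (0.366). *Camk2a* had rank 3 in wild-type CH with either length, at 5.42 ± 0.708 CPM per kb of merged exons, and rank 4 with merged exons in *Lmx1a-/-* CH, at 3.09 ± 0.280 CPM per kb (SD, n = 5 each). The order of the uppermost genes with merged exons was *Camk2d*, *Camk2g*, *Camk2a*, *Camk1d*, *Camk2n1* and *Camk2n2* in wild-type CH and *Camk2g*, *Camk2d*, *Camk2n1*, *Camk2a*, *Camk2n2* and *Camk1d* in *Lmx1a-/-* CH.

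**Figure D4:**
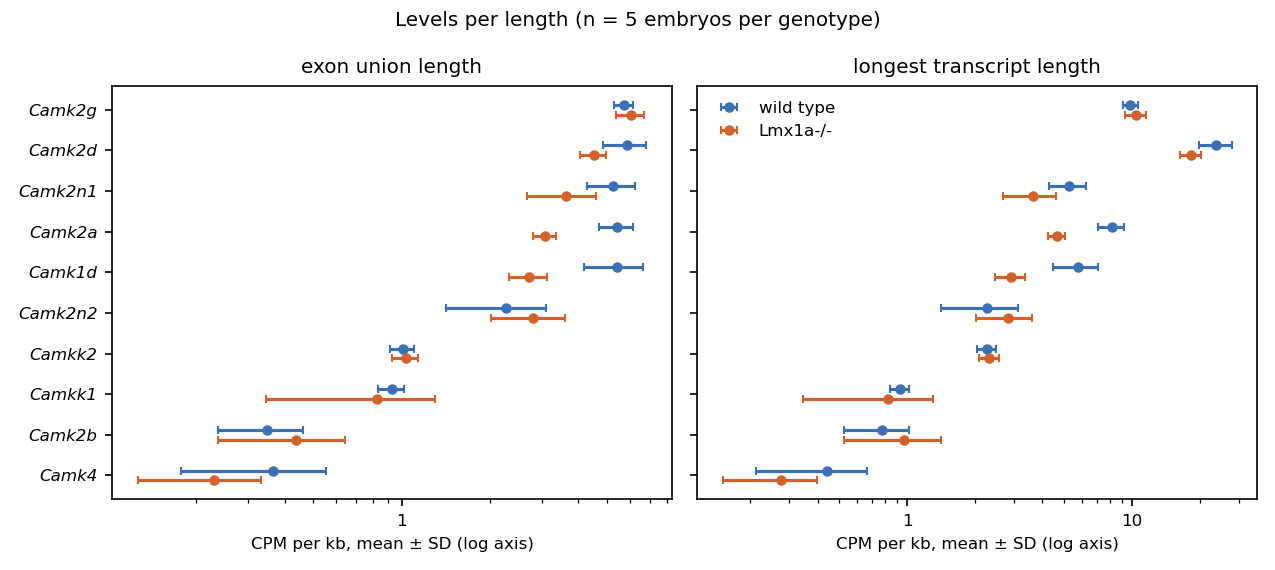
Mean ± SD of CPM per kb (log axes) of the 10 genes in 5 wild-type and 5 Lmx1a-/- embryos, with merged exons (left) and the longest transcript (right) as the length. Camk2d moves furthest between the panels, from 5.84 to 23.8 CPM per kb in wild-type CH.

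The genes whose pattern over the 10 libraries was nearest to that of *Camk2a* were found by the root mean square (RMS) difference between log2 CPM profiles, each centered on its own mean, among 16716 genes with a mean of at least 1 CPM. They were *Dab1* (0.151), the adaptor that relays Reelin signals, *Mtss1l* (0.153), *Slc44a5* (0.161), *Chn2* (0.168), a Rac GTPase-activating protein, and the amino acid transporter gene *Slc7a6* (0.170). *Dab1* had 140, 124, 136, 117 and 149 CPM in wild-type embryos against 85.1, 96.7, 65.3, 64.2 and 92.3 CPM in *Lmx1a-/-* embryos. Like *Camk2a*, it had its lowest wild-type level in embryo 4 and no overlap between the genotypes. *Dab1* was picked by its likeness to *Camk2a* in these same libraries, so nothing is read from these shared features. All profiles share the same libraries and scaling. Within the CaMK group, *Camk2d* was the nearest to *Camk2a* (rank 208, RMS 0.290), followed by *Camk1d* (rank 472, 0.322) and *Camk2n1* (rank 711, 0.340), while *Camkk2* and *Camk2g* ranked 5800 and 6568 and *Camkk1*, *Camk2n2* and *Camk2b* at 12425 or beyond. *Camk4* had a mean under 1 CPM and was not ranked.

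The rest of the pathway was taken from 10 lists by textbook role, from calcium entry to transcription. Of their 155 genes, 146 were tested, and 8 fell and 4 rose in *Lmx1a-/-* CH, where 2.29% of all genes tested were called lower and 1.72% higher. Across all 146, 91 had a lower mean, beside 50.6% of all genes tested, and the median log2 fold change was −0.10. For the counts below, 3545 of all 21664 genes tested had an unadjusted p under 0.05 in edgeR's quasi-likelihood test. Over the same genes, 1766 passed with DESeq2 and 1360 with the likelihood ratio test.

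**Figure D5:**
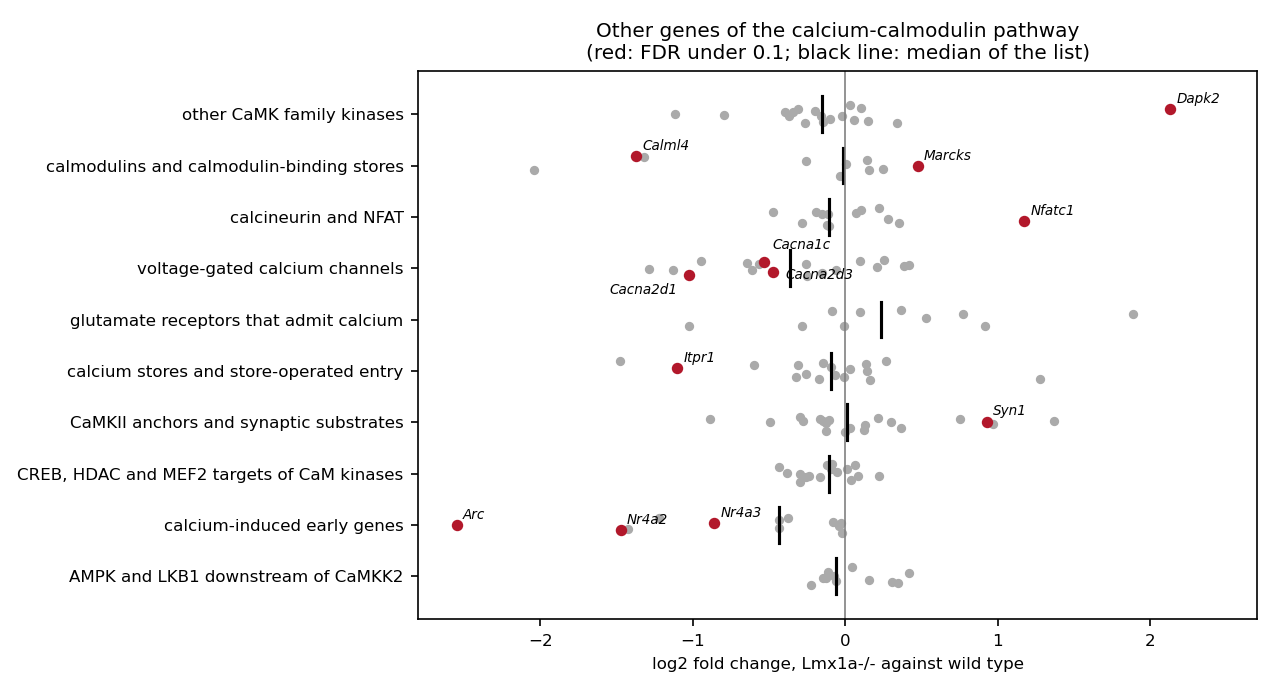
Log2 fold change of Lmx1a-/- against wild-type embryos for each tested gene of the 10 pathway lists (points; red, FDR under 0.1; black line, median of the list; vertical position within a list is arbitrary). Voltage-gated calcium channels and calcium-induced early genes hold 3 red points each, all left of 0.

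Voltage-gated calcium channels admit calcium on depolarization, and 3 of 18 tested genes fell while no channel gene was called higher. The auxiliary subunit gene *Cacna2d1* had 157, 153, 147, 99.3 and 167 CPM in wild-type embryos against 63.4, 82.0, 66.8, 65.3 and 78.1 CPM in *Lmx1a-/-* embryos (log2 fold change −1.03, SE 0.13, FDR by edgeR's quasi-likelihood test 0.00157). The groups did not overlap. *Cacna2d3* fell from 127 ± 24.95 to 91.6 ± 3.29 CPM without overlap (log2 fold change −0.47, edgeR quasi-likelihood FDR = 0.0535), and lost its call without *Lmx1a-/-* embryo 4 or 5 (edgeR quasi-likelihood FDR = 0.121 and 0.109). The L-type pore gene *Cacna1c* fell from 34.3 ± 3.24 to 23.7 ± 3.59 CPM (log2 fold change −0.53, edgeR quasi-likelihood FDR = 0.0329), with *Lmx1a-/-* embryo 1 inside the wild-type range. The median of the list was −0.36, with 13 of 18 means lower.

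Of the 10 glutamate receptor genes tested, which admit calcium to differing degrees, 0 passed with edgeR's quasi-likelihood test, 2 had an unadjusted p under 0.05 and 0 passed with DESeq2 or the likelihood ratio test. These 2 were *Grin2b* (4.22 ± 3.79 and 15.8 ± 16.6 CPM) and *Grin2d* (1.47 ± 0.597 and 2.50 ± 0.792 CPM), NMDA receptor subunit genes, with edgeR quasi-likelihood FDR of 0.207 and 0.301. Without wild-type embryo 3, 1 gene of this list passed.

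Among 17 tested genes of calcium stores and store-operated entry, 1 fell. *Itpr1* encodes the IP3 receptor that releases calcium from the endoplasmic reticulum. It had 246, 286, 141, 213 and 290 CPM in wild-type embryos against 81.9, 107, 127, 129 and 102.2 CPM in *Lmx1a-/-* embryos (log2 fold change −1.10, SE 0.18, FDR by edgeR's quasi-likelihood test 0.00639). Wild-type embryo 3 was nearest to the *Lmx1a-/-* group, which it did not overlap. Without *Lmx1a-/-* embryo 3 the list had 2 calls.

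The calcium sensor of these kinases is calmodulin. In the list of calmodulins and of proteins that hold them, 1 of 10 tested genes rose and 1 fell. *Marcks* rose from 537 ± 102.1 to 746 ± 96.9 CPM (log2 fold change 0.47, edgeR quasi-likelihood FDR = 0.082) and *Calml4* fell from 4.46 ± 2.01 to 1.72 ± 0.693 CPM (log2 fold change −1.37, edgeR quasi-likelihood FDR = 0.0988). Leaving out 1 embryo removed the call of *Marcks* in 7 of 10 fits and that of *Calml4* in 8.

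Of the 18 other CaMK family kinases tested, 1 rose. *Dapk2*, a death-associated kinase, went from 0.465 ± 0.311 to 2.09 ± 1.15 CPM (log2 fold change 2.13, edgeR quasi-likelihood FDR = 0.0753), a call lost in 8 of 10 fits without 1 embryo. The closest relatives of *Camk1d*, *Camk1* (8.86 and 11.2 CPM in wild-type and *Lmx1a-/-* CH) and *Camk1g* (8.88 and 9.21 CPM), did not pass.

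Calcineurin is the phosphatase that calcium-bound calmodulin activates, and NFAT proteins are its substrates. Here 1 of 13 tested genes rose. *Nfatc1* had 9.29, 3.97, 11.2, 8.35 and 8.09 CPM in wild-type embryos against 18.6, 30.2, 12.7, 11.7 and 19.7 CPM in *Lmx1a-/-* embryos, all above the wild-type range (log2 fold change 1.17, SE 0.29, FDR by edgeR's quasi-likelihood test 0.0556). The call was lost without wild-type embryo 1 or *Lmx1a-/-* embryo 2 or 5 (edgeR quasi-likelihood FDR between 0.102 and 0.127). Of the 11 tested AMPK and LKB1 genes downstream of *Camkk2*, 0 passed with edgeR's quasi-likelihood test, 3 had an unadjusted p under 0.05, and 2 passed with DESeq2 and 0 with the likelihood ratio test. The smallest p values were those of *Prkab2* (18.2 ± 2.08 and 23.1 ± 2.24 CPM) and *Stk11* (29.1 ± 2.89 and 38.9 ± 9.31 CPM), with edgeR quasi-likelihood FDR of 0.145 and 0.185. Without *Lmx1a-/-* embryo 2, 1 gene of this list passed.

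Among 20 CaMKII anchors and synaptic substrates, 1 rose. *Syn1* encodes synapsin, a synaptic vesicle protein that CaMKII phosphorylates. It had 13.8, 11.1, 15.3, 7.84 and 13.8 CPM in wild-type embryos against 16.2, 27.0, 17.99, 21.9 and 35.1 CPM in *Lmx1a-/-* embryos, without overlap (log2 fold change 0.93, SE 0.22, FDR by edgeR's quasi-likelihood test 0.0514). Its call was lost without wild-type embryo 2 or *Lmx1a-/-* embryo 2 or 5 (edgeR quasi-likelihood FDR between 0.115 and 0.118).

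Of 16 tested CREB, HDAC and MEF2 genes, whose products CaM kinases or their relatives modify in the nucleus, 0 passed with edgeR's quasi-likelihood test, 2 had an unadjusted p under 0.05, and 1 passed with DESeq2 and 0 with the likelihood ratio test. Those with the smallest p values were the class II deacetylase genes *Hdac4* (105 ± 9.63 and 85.4 ± 8.83 CPM) and *Hdac7* (28.9 ± 3.93 and 22.2 ± 4.55 CPM), with edgeR quasi-likelihood FDR of 0.119 and 0.216. Without wild-type embryo 3, 1 gene of this list passed.

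Genes that calcium signals induce within minutes in neurons had a lower mean in *Lmx1a-/-* CH for all 13 tested, and 3 of them fell. *Arc*, a regulator of synaptic receptors, had 4.48, 2.66, 3.62, 3.06 and 3.14 CPM in wild-type embryos against 0.698, 0.870, 0.341, 0.859 and 0.139 CPM in *Lmx1a-/-* embryos (log2 fold change −2.55, SE 0.42, FDR by edgeR's quasi-likelihood test 0.00735). *Nr4a2*, an orphan nuclear receptor gene, had 52.7, 62.6, 33.3, 69.4 and 68.2 CPM in wild-type embryos against 23.0, 25.5, 17.1, 23.9 and 13.5 CPM in *Lmx1a-/-* embryos (log2 fold change −1.47, SE 0.21, FDR by edgeR's quasi-likelihood test 0.00280). Neither overlapped between genotypes. Its relative *Nr4a3* fell from 60.05 ± 18.9 to 33.0 ± 4.50 CPM with wild-type embryo 3 inside the *Lmx1a-/-* range (log2 fold change −0.86, edgeR quasi-likelihood FDR = 0.0451), and its call was lost without wild-type embryo 1 or 2 or *Lmx1a-/-* embryo 5 (edgeR quasi-likelihood FDR between 0.102 and 0.105).

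The calls of *Cacna2d1*, *Cacna1c*, *Itpr1*, *Arc* and *Nr4a2* were kept in each of the 10 fits without 1 embryo. None of the 12 pathway calls stayed past the threshold with the *Xist* level as a covariate. In that fit the log2 fold change of *Cacna2d1*, *Itpr1*, *Arc* and *Nr4a2* was −1.17, −1.16, −3.12 and −1.42, and that of *Cacna1c* −0.28. With choroid plexus markers as a covariate 1 stayed, *Arc*, and the log2 fold changes of *Itpr1*, *Nr4a3*, *Calml4* and *Nfatc1* were −0.51, −0.19, −0.57 and 0.46. In the 6 embryos with Y-linked transcripts, *Cacna2d1*, *Itpr1* and *Nr4a3* were past the threshold, in a fit with 1 wild-type embryo whose spread is assumed to be that of the *Lmx1a-/-* embryos. The p-values set the genotype difference against the spread between embryos of one genotype. Outside wild-type embryo 1 that difference is also one of sex. Counts are uncertain where genes overlap on opposite strands. Of the 10 CaMK genes, *Camk4* alone shared exon sequence with a counted gene, *2310026I22Rik* on the other strand, over 72 bases.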

How the data were processed

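The authors trimmed paired-end reads, aligned them to GRCm38 with STAR 2.7.1a and counted reads per Ensembl gene with HTSeq 0.11.2. They deposited raw counts for all genes. The strand setting and any use of multimapping reads are not given in the sources used here. Genotype and embryo number come from the labels, and positions from GENCODE M21. After 281 exact repeats among the 52508 rows were dropped, 52227 genes remained. Genes with 10 counts in 3 libraries were fitted over all 10 libraries with edgeR 4.0.16 in R 4.3.3 (TMM, trended dispersion, quasi-likelihood test without covariates), and called at FDR under 0.1 over all 21664 genes. The SE is the size of the log2 fold change divided by the square root of F. Embryos of the same number were not alike across the genotypes (correlation of deviations −0.10 to 0.02). The paper compares mutants with wild-type littermates, but the labels name no litters, so pairing by litter was not checked. Alternatives were DESeq2 1.42.0, other edgeR tests, scaling and filters, covariates, an embryo-number block and leaving out each embryo. Genes named are the 10 members, the calls of each pathway list or else its 2 smallest p values, and the 5 genes nearest to Camk2a, with Camk1, Camk1g, Ttr and Sulf1 added after their values were seen. The members and lists were chosen with earlier results of these data known.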

Additional observations from a re-analysis of the deposited data

Results flagged for a closer look

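In 44 groups of 5 embryos, each for 1 gene and genotype, the highest or lowest embryo was checked for a gap of over 0.71 of the range of its group, which chance gives in about 1 of 20 groups. There were 3 such values. In Lmx1a-/- embryo 5, Camk2b was at 7.20 CPM, where the other 4 Lmx1a-/- embryos had 2.73 to 3.91 CPM. In Lmx1a-/- embryo 2, Camk2d was at 119 CPM, where the others had 94.0 to 100.2 CPM. In Lmx1a-/- embryo 1, Cacna1c was at 29.8 CPM, where the others had 20.5 to 23.1 CPM, and the Cacna1c call was kept without any 1 embryo.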

How the results depend on the processing

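Leaving out 1 embryo gave 451 to 1059 calls over all genes, with 451 without Lmx1a-/- embryo 4, 504 without wild-type embryo 1, 546 without Lmx1a-/- embryo 5, 551 without wild-type embryo 2 and 578 without Lmx1a-/- embryo 2, against 870. Ranges were 2 to 3 for the 10 CaMK genes, −0.86 to −0.74 for the log2 fold change of Camk2a, 0 to 1 for other CaMK kinases, glutamate receptors, CREB genes and AMPK genes, 0 to 2 for calmodulins, calcineurin and anchors, 1 to 2 for calcium stores, 2 to 4 for calcium channels and early genes, and 2 to 4 for ordered pairs of levels. The likelihood ratio test gave 1360 calls (805 lower, 555 higher), with 4 calmodulins and 2 anchors. DESeq2 gave 1766 (976 lower, 790 higher), with 4 of the 10 CaMK genes, 2 calcineurin genes, 5 channels, 5 anchors, 1 CREB gene and 2 AMPK genes. The newer quasi-likelihood method gave 4 calmodulins and 2 anchors, and upper quartile scaling 1 calmodulin and 2 calcineurin genes. Scaling by library size alone called 427 genes lower and 430 higher, against 497 and 373. An FDR of 0.05 left 448 calls (251 lower, 197 higher) and 0 for other CaMK kinases, calmodulins, calcineurin and anchors.

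Both covariates take other values in the 2 genotypes. With the Xist covariate there were 27 calls in all, 1 among the 10 CaMK genes (Camk2a, −1.08) and 0 in the 7 pathway lists that had calls. With the choroid plexus covariate there were 56 (23 lower, 33 higher), with 0 among the CaMK genes, 1 early gene and 0 in the other lists. The 6 embryos with Y-linked transcripts, where the lone wild-type embryo is assumed to vary like the others, gave 130 (90 lower, 40 higher), with 1 CaMK gene (Camk2a, −1.07), 1 channel, 1 early gene, and 0 other CaMK kinases, calmodulins, calcineurin genes and anchors. A block for the embryo number gave 601 calls (353 lower, 248 higher), with 0 other CaMK kinases, 1 calmodulin, 0 calcineurin genes, 1 channel and 2 anchors. No embryo deviated most like the embryo of its own number (0 of 5), so the number was not taken as a pairing, and litters are not labeled. The longest transcript as length reversed Camk2g over Camk2d (−1.03) and Camk2n1 over Camk2a (−0.50) and ordered 6 pairs. The mean log2 difference of Camkk1 over Camk2b was then −0.010, within its spread, and Camkk1 still had the higher mean level. The cause of the moved counts was not tested.

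Depth limits the sparse genes. Camk4, Camk2b, Camk2n2 and Camkk1 had 10 to 207 reads per library, and the intervals that their SE gives for the log2 fold change of Camk4 (−1.60 to 0.28) and Camkk1 (−0.90 to 0.54) hold both 0 and the value of Camk2a. The log2 fold changes of Camk4 (−0.88 to 0.35), Camk2n2 (−0.07 to 0.34), Camkk1 and Camkk2 changed sign under some of these settings.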
